A study of Homo sapiens with 7 samples.

Results

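The annexins described here are 10 genes: ANXA1, ANXA2, ANXA3, ANXA4, ANXA5, ANXA6, ANXA7, ANXA8, ANXA10 and ANXA11. The array table names 19775 genes by a probe set of their own, among them 9 of the 10. The members were chosen on measured values of these arrays, ANXA10 for its levels across the lines and the others as annexins to set beside it, most of them strongly detected. Expression was measured on 7 arrays of cultures that all descend from PC-3, an established human prostate cancer cell line, all of which express luciferase and were grown untreated in the same serum-containing medium. The 3 groups follow from the parent lines that the labels give. The PC-3-descended sublines, which did not pass through TEM4-18, are GS672.Ug, recovered from urogenital tissue of a mouse after intravenous injection of PC-3, and GS689.Li and GS694.LAd, recovered from the liver and the left adrenal after injection of JD549.Ki, a kidney-derived PC-3 line. The TEM4-18-derived sublines are GS683.LALN and JD1203.Lu, recovered after injection of TEM4-18. TEM4-18 itself, with 2 arrays, was obtained in culture as the PC-3 cells that had crossed a layer of lung microvascular endothelial cells.

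Each subline is 1 line with 1 array, GS689.Li and GS694.LAd come from the same parent, and the labels do not say whether the TEM4-18 duplicates are separate cultures, so p-values measure only the spread among these arrays, which may be technical. JD549.Ki and the parental PC-3 line are not analysed here. The labels conflict in places: JD1203.Lu has the source name JD549.Ki, the description of GS694.LAd also gives it the name JD549.Ki, and GS683.LALN is placed in the left axillary lymph node by its description but in the lung by the text on the design. The groups rest on the cell line field and the stated parent. All 5 markers of the PC-3 line (KRT8, KRT18, KRT19, CD44 and VIM) passed the filter on low signal. The summed signal of 4 leukocyte markers, of which CD3E passed the filter, was 319 to 652 on every array. The sum of 5 fibroblast markers was 12769 to 17023 in PC-3-descended sublines, 3796 to 31409 in TEM4-18-derived sublines and 17312 to 19091 in TEM4-18. Among these, COL1A1 read 3071 in GS683.LALN and 30752 in JD1203.Lu. What these markers reflect was not tested.

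Annexins are proteins that bind membranes rich in acidic phospholipids when calcium rises. They share a folded core of annexin repeats, which holds the calcium sites, and differ in their N-terminal tails, through which several of them bind S100 proteins or other partners. In epithelial and cancer cells they are known for sealing torn plasma membrane, moving vesicles, organising lipid domains and, on the cell surface, binding plasminogen activators and phosphatidylserine.

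The promoters of 3 members are shown because ANXA6 passed the test, ANXA10 is the member chosen for its levels, and ANXA1 is a strongly detected member with which its promoter can be set. They are RefSeq sequences of GRCh38.p14 from 250 bases before to 50 after the annotated gene start, written 5′ to 3′ on the strand of the gene. Capitals mark matches on either strand to TATAAA (the TATA box), to CCAAT (the CCAAT box) and to GGGCGG (the GC box), none of which overlap here. The ANXA6 promoter lies at chr5:151157730-151158029 on the minus strand, that of ANXA10 at chr4:168092287-168092586 on the plus strand and that of ANXA1 at chr9:73151615-73151914 on the plus strand.
ANXA6: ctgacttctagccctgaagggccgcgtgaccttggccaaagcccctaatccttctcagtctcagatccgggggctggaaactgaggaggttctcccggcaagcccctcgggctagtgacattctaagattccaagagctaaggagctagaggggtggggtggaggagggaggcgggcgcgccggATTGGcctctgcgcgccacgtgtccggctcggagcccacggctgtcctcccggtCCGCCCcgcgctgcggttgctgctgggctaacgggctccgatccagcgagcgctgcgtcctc
ANXA10: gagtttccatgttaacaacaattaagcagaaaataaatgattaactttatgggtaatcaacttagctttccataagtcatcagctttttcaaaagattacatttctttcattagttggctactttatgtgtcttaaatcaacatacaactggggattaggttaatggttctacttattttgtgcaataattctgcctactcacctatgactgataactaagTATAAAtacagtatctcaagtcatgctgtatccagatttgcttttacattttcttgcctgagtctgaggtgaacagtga
ANXA1: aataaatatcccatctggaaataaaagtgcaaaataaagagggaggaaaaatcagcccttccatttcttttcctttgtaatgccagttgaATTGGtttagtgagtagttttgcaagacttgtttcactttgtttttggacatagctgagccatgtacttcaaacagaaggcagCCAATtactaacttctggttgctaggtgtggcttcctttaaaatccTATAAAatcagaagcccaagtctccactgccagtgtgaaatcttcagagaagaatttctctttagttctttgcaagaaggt

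The ANXA10 promoter held 0 CpG dinucleotides at a GC content of 32.7%, and that of ANXA1 held 0 at 37.7%, while that of ANXA6 held 25 at 66.3%. The median over 27305 promoters was 14 CpG at 58.3% GC, and 4.16% of promoters held as few CpG as ANXA10 and ANXA1. Of the members, 9 had a promoter in the RefSeq table. Those of ANXA4, ANXA5 and ANXA2 held 44, 36 and 32 CpG, those of ANXA3 and ANXA7 held 25 and 23, and that of ANXA11 held 12. A TATAAA match stood in 4 of the 9 (ANXA1, ANXA2, ANXA10 and ANXA11), against 12% of all promoters, and started at -31 from the gene start in ANXA1 and at -29 in ANXA10. GGGCGG stood in 5 of the 9, against 44.6% of all promoters, and CCAAT in 3, against 35.7%. TGANTCA, the AP-1 motif, stood in 1 (ANXA2), against 7.76%. These matches describe letters in a window and are no evidence of binding.

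Signals below are the authors' MAS5 values on a linear scale. They were compared across arrays within a probe set, since the signals of different probe sets cannot be set against each other. Exceptions are the marker sums, the choice of a gene's brightest probe set and remarks on how strongly a gene was detected, all of them rough. Of 21 probe sets that name an annexin of the family, 18 name 1 gene and 3 name several. All 18 passed the filter, a mean over the 7 arrays of at least 161, and the probe set of highest mean stood for its gene. ANXA8 has only probe sets shared with ANXA8L1, a near-identical copy, and was not tested. ANXA10 passed the filter through the sublines, since its mean in TEM4-18 was 40.4. It is described without a test because its values chose it, which leaves 8 members with a test. Differences are on the scale of log2(signal + 46.9), with standard errors and adjusted p-values from limma after Benjamini-Hochberg adjustment over 13640 genes. Where all sublines of a group are said to lie above other arrays, the share of all genes that do so was not counted.

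**Figure D1:**
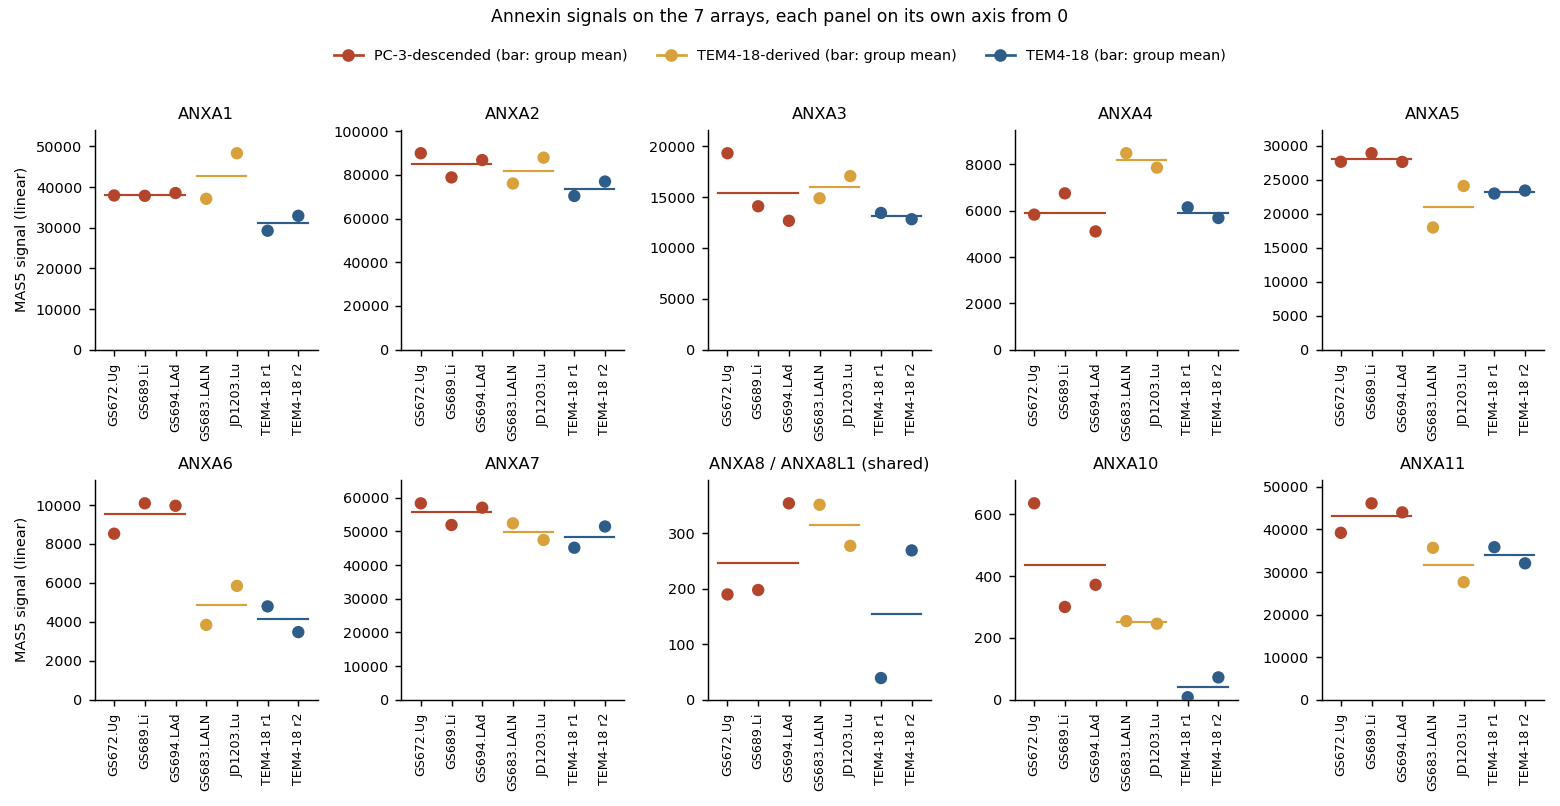
MAS5 signal (linear, each panel on its own axis starting at 0) of the 10 annexins on the 7 arrays, with the PC-3-descended sublines at the left, the TEM4-18-derived sublines next and the TEM4-18 duplicates at the right. Points are arrays and lines are group means. ANXA6 stands higher in the 3 PC-3-descended sublines than on the other arrays, and ANXA10 is lowest on both TEM4-18 arrays.

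Among the 8 annexins tested, ANXA6 alone passed the test in the PC-3-descended sublines, where it was higher than in TEM4-18 and than in the sublines grown from TEM4-18. The other 7 (ANXA1, ANXA2, ANXA3, ANXA4, ANXA5, ANXA7 and ANXA11) did not pass in any of the 4 comparisons. Against TEM4-18, 1 of the 8 passed in the PC-3-descended sublines, where 3.38% of all genes tested passed. The members' median difference was 0.24 on the log2 scale, against 0.05 over all genes, and 7 of 8 were above 0. In the PC-3-descended against the TEM4-18-derived sublines, 1 of 8 passed, where 3.76% of all genes passed, with a median of 0.11 against 0.05 over all genes. In the TEM4-18-derived sublines against TEM4-18, limma called 0 of 8, where 0.0733% of all genes passed and 1326 had an unadjusted p under 0.05. With all 5 in vivo sublines set against TEM4-18, limma called 0 of 8 and 0% of all genes, with 1136 genes at an unadjusted p under 0.05. All of the contrasts with TEM4-18 share its 2 arrays.

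Each of the 8 members tested was taken by its brightest probe set. The range over the 7 arrays had a median of 0.70 on the log2 scale over these 8, and ran from 0.35 for ANXA2 to 1.52 for ANXA6, against a median of 0.85 over all genes tested. Taken by size alone, without a test, ANXA6 was the only one of the 8 that in any subline lay outside both TEM4-18 duplicates and 2-fold or more from their mean. It did so in GS672.Ug (1 of 8 members, against 8.37% of all genes), GS689.Li (1 of 8, against 10.2%) and GS694.LAd (1 of 8, against 10.6%). The count was 0 of 8 in GS683.LALN, against 5.71% of all genes, and 0 of 8 in JD1203.Lu, against 8.75%. Between the TEM4-18 duplicates, 0 of 8 lay 2-fold apart, against 4.2% of all genes. The 8 members had mean signals of 6550 or more, while the genes tested reach down to 161. No comparison with genes of like signal was made.

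**Figure D2:**
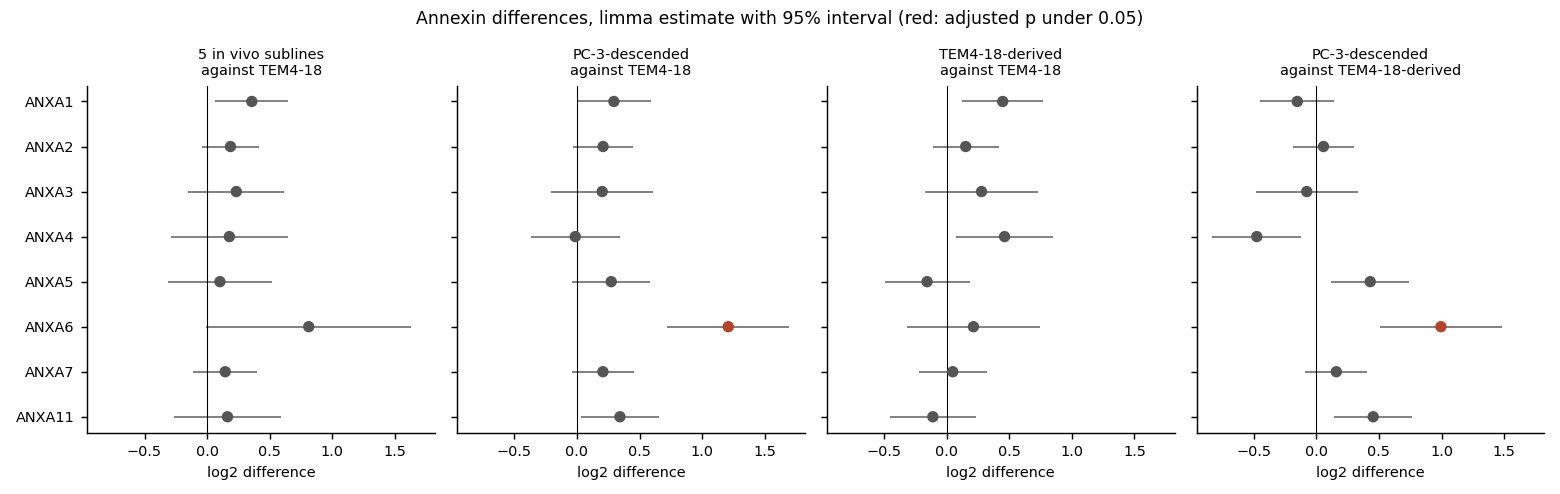
Log2 differences of the 8 annexins tested (points) with 95% intervals from limma (bars) in the 4 comparisons, 1 panel each; red points passed at an adjusted p under 0.05. ANXA6 passed in the PC-3-descended sublines against TEM4-18 (1.21) and against the TEM4-18-derived sublines (0.99).

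ANXA6 is the largest annexin, with a duplicated core, and is known for linking membranes to the cytoskeleton, for moving cholesterol through endosomes and for bringing protein kinase C alpha and the RAS regulator RASA1 to the EGF receptor. Its signal was 9961 in GS694.LAd, 10087.5 in GS689.Li and 8527 in GS672.Ug, against 3845 in GS683.LALN and 5848 in JD1203.Lu, and 4795 and 3475 on the TEM4-18 arrays. All 3 PC-3-descended sublines lay above all 4 other arrays, and the TEM4-18-derived sublines overlapped the TEM4-18 duplicates. The mean was 9525 ± 867 in PC-3-descended sublines (SD, n = 3), 4846 ± 1416 in TEM4-18-derived sublines (SD, n = 2) and 4135 ± 933 in TEM4-18 (SD, n = 2).

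ANXA6 was 2.31-fold higher in the PC-3-descended sublines than in TEM4-18, a log2 difference of 1.21 ± 0.21 (limma, adjusted p = 0.0197). It was 1.99-fold higher than in the TEM4-18-derived sublines, by 0.99 ± 0.21 (limma, adjusted p = 0.0405). The TEM4-18-derived sublines did not differ from TEM4-18 beyond the error (0.21 ± 0.24, limma adjusted p = 0.805), with an interval of -0.32 to 0.75. By subline against TEM4-18, the difference was 1.30 in GS689.Li, 1.28 in GS694.LAd, 1.05 in GS672.Ug, 0.51 in JD1203.Lu and -0.09 in GS683.LALN. In the order of the signals, GS689.Li, GS694.LAd and GS672.Ug were separated by gaps of 0.02 and 0.22, below the 0.46 between the TEM4-18 duplicates, and the gap of 0.54 to JD1203.Lu next in order was above it.

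Of 18 alternative settings the call against TEM4-18 was lost in 7, with limma adjusted p of 0.00854 to 0.237 over all of them: without TEM4-18 replicate 1 (0.102) or replicate 2 (0.237), without GS689.Li (0.0838) or GS694.LAd (0.0865), with those sublines averaged (0.0835), without the intensity trend (0.0732), and with the mean of both ANXA6 probe sets (0.79, adjusted p = 0.0781). The call against the TEM4-18-derived sublines was lost in 9 of 18, with limma adjusted p of 0.0168 to 0.145, among them each of the settings just named, no filter on low signal (0.0532) and leaving out GS683.LALN (0.70, adjusted p = 0.112). The dimmer ANXA6 probe set read 319, 248.6 and 277 in GS672.Ug, GS689.Li and GS694.LAd, against 177 in GS683.LALN and 211 in JD1203.Lu, and 109 and 364 on the TEM4-18 arrays. The TEM4-18 duplicates spanned the whole range of this probe set, whose difference between PC-3-descended sublines and TEM4-18 was 0.37 ± 0.45 (limma, adjusted p = 0.731). Of 5 endothelium markers, KDR and PECAM1 moved with ANXA6 and made up most of the summed signal. That sum was 6580 to 7883 in PC-3-descended sublines, 1258 to 2415 in TEM4-18-derived sublines and 1703 to 1718 in TEM4-18. CDH5, VWF and TEK stayed under the filter. CDH5 went the other way, with 46.3 and 88.2 on the TEM4-18 arrays against 4.12 to 17.2 in the sublines. VWF was highest in JD1203.Lu (216). The part of these markers in the result was not tested. In a culture, fewer cells that express a gene and less RNA per cell cannot be told apart.

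The genes next to ANXA6 on chromosome 5 were examined after their values were seen. Of the 5 tested genes on each side in RefSeq order, 4 of 10 were higher in PC-3-descended sublines than in TEM4-18 and 0 were lower, where 3.38% of all genes passed in either direction. The median of the 10 was 0.61, and 9 lay above 0. CCDC69, the adjoining tested gene, differed by 2.76 ± 0.37 (limma, adjusted p = 0.00655). GM2A, the activator protein for ganglioside breakdown in lysosomes, differed by 1.43 ± 0.19 (limma, adjusted p = 0.00682). SLC36A1, an amino acid transporter of lysosomes, differed by 0.92 ± 0.21 (limma, adjusted p = 0.0478), and ATOX1, a copper chaperone, by 0.63 ± 0.12 (limma, adjusted p = 0.0294). These 4 lie on the same side of ANXA6, together with SPARC at 0.40 ± 0.99 (limma, adjusted p = 0.878). On the other side TNIP1, the nearest tested gene, differed by 0.62 ± 0.17 (limma, adjusted p = 0.0954) and RBM22, the farthest of the 5, by 0.14 ± 0.16 (limma, adjusted p = 0.7097).

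CCDC69, GM2A and SLC36A1 were also higher in PC-3-descended than in TEM4-18-derived sublines, by 2.42, 0.90 and 0.90 (limma adjusted p = 0.0112, 0.0414 and 0.0490). The number of the 10 neighbours that passed against TEM4-18 ran from 0 to 4 over 18 alternatives. It was 0 without TEM4-18 replicate 2, 1 without TEM4-18 replicate 1, and 2 without GS689.Li or without GS694.LAd. Of the 4 calls, that of SLC36A1 was lost in 11 of the 18 and that of ATOX1 in 7, GM2A was lost without either TEM4-18 array, and CCDC69 was lost in 1 of the 18, without TEM4-18 replicate 2. In GS683.LALN, CCDC69 was at -0.25 and GM2A at 0.29 relative to TEM4-18, and in JD1203.Lu they were at 0.92 and 0.77.

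**Figure D3:**
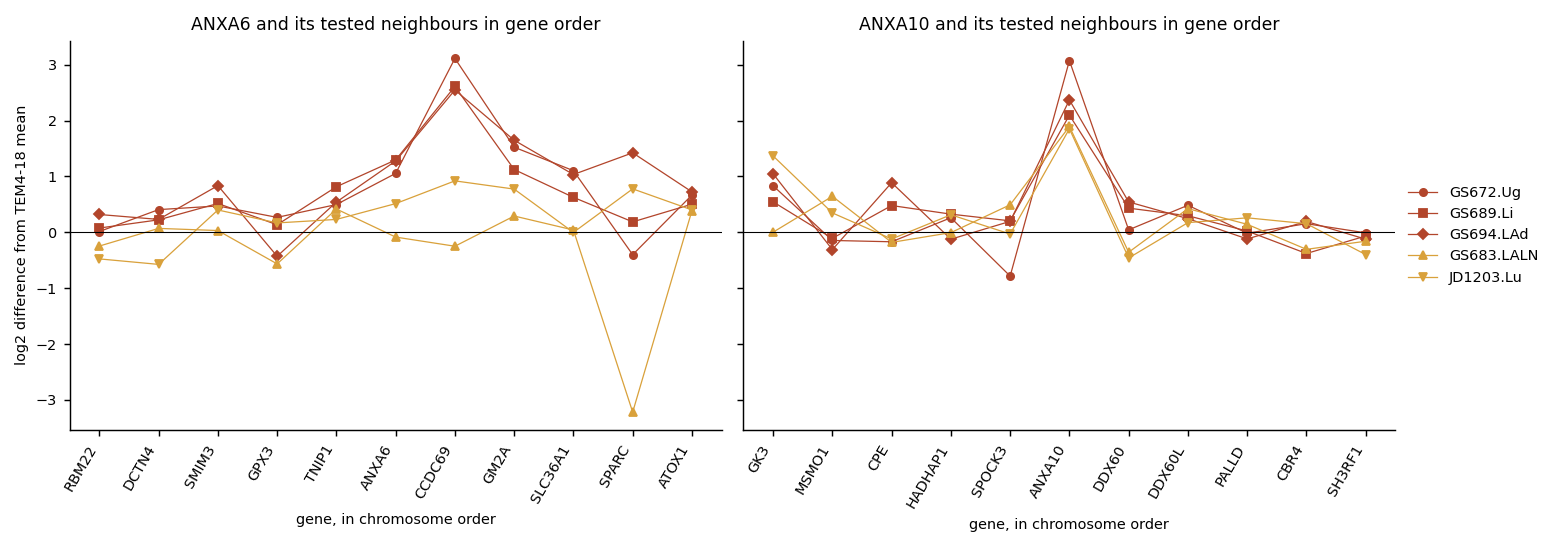
Log2 differences of each subline from the mean of the TEM4-18 duplicates (points, in colours of the parent group) for ANXA6 and ANXA10 and the 5 tested genes on each side of them in chromosome order. CCDC69 and GM2A stand above 1 with ANXA6 in the 3 PC-3-descended sublines. ANXA10, which was chosen with its levels known, stands above its neighbours in all 5 sublines. GK3 comes nearest in JD1203.Lu, at 1.37 against 1.85 for ANXA10.

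ANXA10 is an annexin known from stomach and urothelium, and most of its repeats have lost the calcium sites. Its signal was 372 in GS694.LAd, 300.4 in GS689.Li and 636 in GS672.Ug, against 255 in GS683.LALN and 246 in JD1203.Lu, and 8.30 and 72.4 on the TEM4-18 arrays. All 5 sublines lay above both TEM4-18 arrays, and the gene was chosen with these levels known. The mean was 436 ± 177 in PC-3-descended sublines (SD, n = 3), 250.5 ± 6.04 in TEM4-18-derived sublines (SD, n = 2) and 40.4 ± 45.4 in TEM4-18 (SD, n = 2).

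Relative to TEM4-18, ANXA10 was at 3.07 on the log2 scale in GS672.Ug, 2.10 in GS689.Li, 2.37 in GS694.LAd, 1.89 in GS683.LALN and 1.85 in JD1203.Lu. The group difference was 2.51 for PC-3-descended sublines and 1.87 for TEM4-18-derived sublines against TEM4-18, and 0.64 for PC-3-descended against TEM4-18-derived sublines. In the order of the signals the widest step, 1.30, lay between JD1203.Lu, the lowest subline, and TEM4-18 replicate 2. The steps between sublines next in order were 0.04 to 0.70, and with 1 array per subline none of them can be set against a spread. The TEM4-18 duplicates were 1.11 apart at signals too low to give one. Since both TEM4-18 signals are low, the size of the difference depends on the offset: for PC-3-descended sublines it was 4.08 without an offset and 1.17 with the median signal as offset. It was 1.96 without TEM4-18 replicate 1 and 3.07 without TEM4-18 replicate 2.

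Of the 10 tested genes around ANXA10 on chromosome 4, 0 passed in limma for PC-3-descended sublines against TEM4-18, where 3.38% of all genes passed. Their differences ran from -0.19 to 0.81 with a median of 0.07, and 5 of 10 were above 0. DDX60 and SPOCK3, on either side of ANXA10, were at 0.34 ± 0.28 and -0.13 ± 0.32 (limma, adjusted p = 0.573 and 0.882). Farther out on the side of SPOCK3 lay HADHAP1, CPE, MSMO1, which had the lowest value, and GK3, which had the highest. On the side of DDX60 lay DDX60L (0.34), PALLD (-0.04), CBR4 (-0.01) and SH3RF1 (-0.07). The genes whose log2 values over the 7 arrays ran most like those of ANXA10 were AP3S1, a subunit of the AP-3 vesicle coat (Pearson r = 0.988), MVK, mevalonate kinase (0.987), LINC01134 (0.987), ACTR3BP2 (0.980) and STAT4, a cytokine-activated transcription factor (0.978). These values describe 7 arrays, 2 of them of the same line, scaled alike, and were the highest of 13640 genes searched. MVK, for example, read 3453, 3073 and 3209 in GS672.Ug, GS689.Li and GS694.LAd, against 2877 in GS683.LALN and 3034 in JD1203.Lu, and 2280 and 2483 on the TEM4-18 arrays. The sublines lay above both TEM4-18 arrays for MVK as well, over a far narrower range.

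Of 9 gastric and urothelial epithelial genes listed beside ANXA10, 5 were tested, with a median of 0.05 for PC-3-descended sublines against TEM4-18. Of these, 1 was higher and 0 lower, where 3.38% of all genes passed. This list and the partner lists below were chosen with earlier results of these data known. Calls among them are therefore no independent test. TFF1, a secreted trefoil peptide of gastric mucosa, read 3559, 6061 and 4634 in GS672.Ug, GS689.Li and GS694.LAd, against 1556 in GS683.LALN and 3947 in JD1203.Lu, and 635 and 612 on the TEM4-18 arrays. TFF1 was thus above both TEM4-18 arrays in every subline, by 2.81 ± 0.36 for PC-3-descended sublines (limma, adjusted p = 0.00542) and by 1.92 ± 0.40 for TEM4-18-derived sublines (limma, adjusted p = 0.186). TFF2, its relative, was at 2.45 ± 0.60 against TEM4-18 (limma, adjusted p = 0.0665) and was higher in PC-3-descended than in TEM4-18-derived sublines, by 3.04 ± 0.60 (limma, adjusted p = 0.0298), the 1 call among the 5 in that contrast, where 3.76% of all genes passed. MUC5AC, a gastric surface mucin named after its values were seen, was at -1.22 ± 0.65 in the same contrast (limma, adjusted p = 0.339), with 2591 in GS683.LALN and 343 to 583 on the other 6 arrays. MUC6, a gastric gland mucin, was at -0.40 ± 0.65 against TEM4-18 (limma, adjusted p = 0.806). TFF2 passed against TEM4-18 when GS672.Ug was left out (3.02, limma adjusted p = 0.0129), while TFF1 was lost without TEM4-18 replicate 1 (0.0804) or replicate 2 (0.0896).

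ANXA1 is a glucocorticoid-regulated annexin and EGF receptor substrate whose N-terminal peptides act on formyl peptide receptors. Its signal was 38535.5 in GS694.LAd, 37854 in GS689.Li and 37929.5 in GS672.Ug, against 37116 in GS683.LALN and 48325 in JD1203.Lu, and 29261 and 32921 on the TEM4-18 arrays. All 5 sublines lay above both TEM4-18 arrays, 4 of them close together and JD1203.Lu above the rest. The difference was 0.36 ± 0.13 for all 5 sublines (limma, adjusted p = 0.531), 0.30 ± 0.13 for PC-3-descended sublines (limma, adjusted p = 0.281) and 0.45 ± 0.14 for TEM4-18-derived sublines (limma, adjusted p = 0.385), each against TEM4-18. None passed. The second ANXA1 probe set read 257, 384 and 484 in GS672.Ug, GS689.Li and GS694.LAd, against 755 in GS683.LALN and 786 in JD1203.Lu, and 468 and 454 on the TEM4-18 arrays. There the TEM4-18-derived sublines were highest, and the log2 difference of the PC-3-descended from the TEM4-18-derived sublines was -0.99 ± 0.28 (limma on all probe sets, adjusted p = 0.0990).

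Of 3 formyl peptide receptor genes listed, FPR1 alone was tested, at 0.45 ± 0.52 for PC-3-descended sublines against TEM4-18 (limma, adjusted p = 0.709). So 0 of the list passed, where 3.38% of all genes passed. Some annexins, ANXA1 among them, were described early as inhibitors of phospholipase A2, the enzyme class that frees arachidonic acid for prostaglandin synthesis. Of 7 genes listed for phospholipase A2 and prostaglandin synthesis, 3 were tested. Of these, 1 was higher and 0 lower in PC-3-descended sublines than in TEM4-18, where 3.38% of all genes passed, with a median of 0.53. PLA2G4A, the cytosolic phospholipase A2, read 2431, 1686 and 3085 in GS672.Ug, GS689.Li and GS694.LAd, against 1087 in GS683.LALN and 925 in JD1203.Lu, and 421 and 497 on the TEM4-18 arrays. The 3 groups did not overlap, and the share of all genes with groups apart in this way was not counted. PLA2G4A was higher in PC-3-descended sublines than in TEM4-18, by 2.24 ± 0.26 (limma, adjusted p = 0.00356), and than in TEM4-18-derived sublines, by 1.18 ± 0.26 (limma, adjusted p = 0.0449). PTGES, the prostaglandin E synthase, was at 0.53 ± 0.26 and PLA2G6 at 0.27 ± 0.27 against TEM4-18 (limma, adjusted p = 0.333 and 0.663).

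ANXA2 pairs with S100A10 on the cell surface, where the complex binds plasminogen and its tissue-type activator. Its signal was 86802 in GS694.LAd, 78861 in GS689.Li and 89936 in GS672.Ug, against 76075 in GS683.LALN and 87913 in JD1203.Lu, and 70351 and 76966 on the TEM4-18 arrays. The PC-3-descended sublines lay above both TEM4-18 arrays, while GS683.LALN lay between the duplicates and JD1203.Lu within the range of the PC-3-descended sublines. The difference against TEM4-18 was 0.21 ± 0.11 in PC-3-descended sublines (limma, adjusted p = 0.349) and 0.15 ± 0.12 in TEM4-18-derived sublines (limma, adjusted p = 0.707). The 3 bright ANXA2 probe sets carry the array maker's mark for possible cross-hybridisation, and differed from TEM4-18 by 0.18 to 0.21 in PC-3-descended sublines, while the 1 dim probe set differed by -0.04 ± 0.38 (limma on all probe sets, adjusted p = 0.977). The probe set shared by SNU13 and ANXA2 was at -0.04.

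Of 7 annexin relatives listed, 3 ANXA2 pseudogenes were tested, with a median of 0.51 for PC-3-descended sublines against TEM4-18. In limma 0 passed, where 3.38% of all genes passed. ANXA2P1 was at 0.55 ± 0.32, ANXA2P2 at 0.51 ± 0.12 and ANXA2P3 at 0.28 ± 0.25 (limma, adjusted p = 0.410, 0.0639 and 0.619). The ANXA2P2 probe set read 45615 in GS694.LAd, 51673 in GS689.Li and 58901 in GS672.Ug, against 46803 in GS683.LALN and 43332 in JD1203.Lu, and 36341.5 and 36348 on the TEM4-18 arrays. Every subline lay above both TEM4-18 arrays on it. Signals of ANXA2 and of its near-identical copies are uncertain, because probes of one can bind RNA of another.

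All 8 S100 and penta-EF-hand partners of annexins were tested. In PC-3-descended sublines against TEM4-18, 1 was higher and 0 lower, where 3.38% of all genes passed, with a median of 0.41. S100A4, a partner of ANXA2 known from metastatic cells, read 9506, 25625 and 22364 in GS672.Ug, GS689.Li and GS694.LAd, against 2356 in GS683.LALN and 3761 in JD1203.Lu, and 2681 and 2496 on the TEM4-18 arrays. The PC-3-descended sublines lay above all others, by 2.74 ± 0.39 relative to TEM4-18 (limma, adjusted p = 0.00790) and 2.54 ± 0.39 relative to TEM4-18-derived sublines (limma, adjusted p = 0.0105). S100A11, which binds ANXA1, was at 0.49 ± 0.15 and PDCD6, the calcium sensor that binds ANXA7 and ANXA11, at 0.46 ± 0.16 against TEM4-18 (limma, adjusted p = 0.134 and 0.169). S100A10, the ANXA2 partner, named after its values were seen, was at 0.42 ± 0.19 (limma, adjusted p = 0.303). S100A11 passed when GS672.Ug was left out (limma, adjusted p = 0.0232), and PDCD6 without GS683.LALN (0.0388) or without JD1203.Lu (0.0399).

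Of 5 genes of plasminogen activation at the cell surface, 4 were tested; in PC-3-descended sublines against TEM4-18, 1 was higher and 0 lower, where 3.38% of all genes passed, with a median of -0.05. PLAT, the tissue-type activator, read 37195, 24238 and 11275 in GS672.Ug, GS689.Li and GS694.LAd, against 2535 in GS683.LALN and 10041 in JD1203.Lu, and 1562 and 2189 on the TEM4-18 arrays. Every subline lay above both TEM4-18 arrays, and PLAT was higher in PC-3-descended sublines by 3.52 ± 0.59 (limma, adjusted p = 0.0168). PLGRKT, a plasminogen receptor, was at -0.57 ± 0.36 and PLAU, the urokinase gene, at -0.14 ± 0.15 (limma, adjusted p = 0.458 and 0.662), and PLGRKT passed as lower without GS672.Ug (-0.98, limma adjusted p = 0.0266). The calls against TEM4-18 of S100A4, PLAT, PLA2G4A and TFF1 were each lost when either TEM4-18 array was left out, at limma adjusted p of 0.0542 to 0.181. Those of S100A4 and PLAT were also lost without the intensity trend (0.0505 and 0.0722), and that of PLAT without GS689.Li (0.0743).

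Among the 8 members tested, ANXA4, ANXA11 and ANXA5 came next after ANXA6 by size of the difference between PC-3-descended and TEM4-18-derived sublines, and none of these 3 passed. ANXA5, the phosphatidylserine-binding annexin used to stain dying cells, read 27658 in GS694.LAd, 28935 in GS689.Li and 27676 in GS672.Ug, against 17996.5 in GS683.LALN and 24109 in JD1203.Lu, and 22996 and 23436 on the TEM4-18 arrays. The PC-3-descended sublines lay close together above the other arrays, and GS683.LALN was lowest. The difference was 0.43 ± 0.14 against TEM4-18-derived sublines (limma, adjusted p = 0.127) and 0.27 ± 0.14 against TEM4-18 (limma, adjusted p = 0.339). ANXA5 passed against the TEM4-18-derived sublines when JD1203.Lu was left out (0.64, limma adjusted p = 0.0250).

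ANXA11 is an annexin with a long N-terminal tail that binds PDCD6 and S100A6 and tethers RNA granules to lysosomes. It read 44003 in GS694.LAd, 46134 in GS689.Li and 39205 in GS672.Ug, against 35687 in GS683.LALN and 27624 in JD1203.Lu, and 35831 and 32041.5 on the TEM4-18 arrays. The PC-3-descended sublines were again above the other arrays, with JD1203.Lu lowest. The difference was 0.45 ± 0.14 against TEM4-18-derived sublines (limma, adjusted p = 0.115) and 0.34 ± 0.14 against TEM4-18 (limma, adjusted p = 0.237), and the difference from TEM4-18-derived sublines passed when GS683.LALN was left out (0.64, limma adjusted p = 0.0443). Its other probe sets disagreed: one was at 0.54 ± 0.20 and the other at -0.68 ± 0.28 between PC-3-descended and TEM4-18-derived sublines (limma on all probe sets, adjusted p = 0.178 and 0.223).

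ANXA4, an annexin of epithelial secretory membranes, ran the other way. It read 5105 in GS694.LAd, 6749 in GS689.Li and 5831 in GS672.Ug, against 8481 in GS683.LALN and 7857 in JD1203.Lu, and 6144 and 5685 on the TEM4-18 arrays. The TEM4-18-derived sublines lay above all other arrays, while PC-3-descended sublines spanned the TEM4-18 duplicates. The difference was -0.48 ± 0.16 for PC-3-descended against TEM4-18-derived sublines (limma, adjusted p = 0.138) and 0.46 ± 0.17 for TEM4-18-derived sublines against TEM4-18 (limma, adjusted p = 0.438). The second ANXA4 probe set gave -0.30 ± 0.17 and 0.35 ± 0.18 in the same contrasts (limma on all probe sets, adjusted p = 0.375 and 0.589).

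ANXA3, best known from neutrophil granules, and ANXA7, a membrane-fusing annexin also called synexin, did not pass in any comparison. ANXA3 read 12668 in GS694.LAd, 14096.5 in GS689.Li and 19310.1 in GS672.Ug, against 14883 in GS683.LALN and 17063 in JD1203.Lu, and 13440.4 and 12823 on the TEM4-18 arrays. GS672.Ug was highest, and GS694.LAd lay below both duplicates. The difference against TEM4-18 was 0.20 ± 0.18 for PC-3-descended sublines (limma, adjusted p = 0.613), with an interval of -0.21 to 0.61. ANXA7 read 57029 in GS694.LAd, 51892 in GS689.Li and 58326 in GS672.Ug, against 52383 in GS683.LALN and 47439.9 in JD1203.Lu, and 45143.5 and 51449.8 on the TEM4-18 arrays. PC-3-descended sublines lay above both duplicates, by 0.21 ± 0.11 (limma, adjusted p = 0.366), with an interval of -0.04 to 0.46. On the second ANXA7 probe set all 5 sublines lay above both duplicates. There the difference from TEM4-18 was 0.14 ± 0.11 for PC-3-descended and 0.21 ± 0.12 for TEM4-18-derived sublines (limma on all probe sets, adjusted p = 0.545 and 0.614).

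ANXA8, known from squamous and other stratified epithelium, could not be read apart from ANXA8L1. The brighter of their shared probe sets read 353 in GS694.LAd, 198 in GS689.Li and 189.5 in GS672.Ug, against 351 in GS683.LALN and 277 in JD1203.Lu, and 39.1 and 269 on the TEM4-18 arrays. TEM4-18 replicate 1 stood low and replicate 2 lay among the sublines, so replicate 1 minus replicate 2 was -1.88 on the log2 scale. The other shared probe set ran from 82.1 in GS694.LAd to 361 in GS689.Li, with the remaining 5 arrays between 171 and 178. The ranges over the 7 arrays were 2.22 and 1.66 on the log2 scale.

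Over all 9 further probe sets of members with a test, limma on 26432 probe sets called 0 for PC-3-descended sublines against TEM4-18, where 3.11% of probe sets passed and 4529 had an unadjusted p under 0.05. It called 0 of the 9 against the TEM4-18-derived sublines, where 3.44% passed and 5047 had an unadjusted p under 0.05. The second ANXA6 probe set was among those not called.

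**Figure D4:**
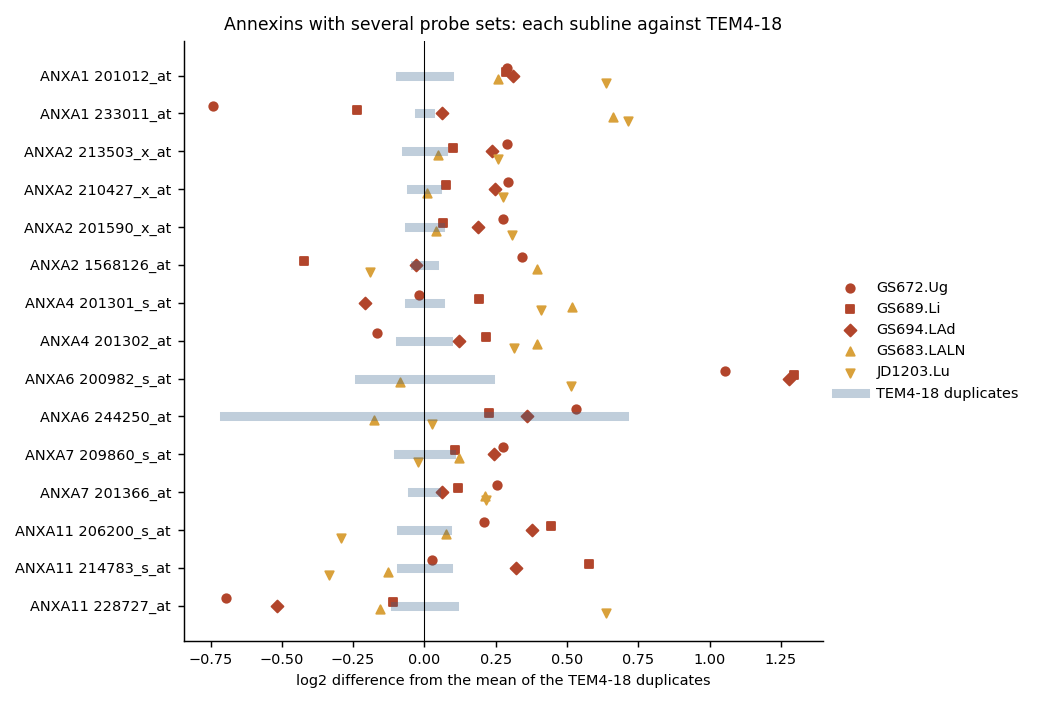
Log2 differences of each subline from the mean of the TEM4-18 duplicates for the probe sets of annexins that have several, with 1 symbol per subline. The bright ANXA2 probe sets lie together, while the dimmest probe sets of ANXA1, ANXA2 and ANXA11 spread more widely over the sublines than the brightest one. The dimmer ANXA6 probe set runs from -0.18 to 0.53, against -0.09 to 1.30 for the brighter one.

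No gene of plasma membrane repair or phosphatidylserine exposure passed. Of 17 plasma membrane repair genes, 13 were tested and 0 passed in limma for PC-3-descended sublines against TEM4-18, where 3.38% of all genes passed and 2422 had an unadjusted p under 0.05. Their median was 0.12. CAPN1, a calcium-activated protease, was at 0.41 ± 0.28, CHMP2B, a subunit of the ESCRT-III membrane scission complex, at -0.33 ± 0.15 and VPS4B, its disassembly ATPase, at 0.31 ± 0.15 (limma, adjusted p = 0.5002, 0.303 and 0.328). Of 8 genes of phosphatidylserine exposure, 6 were tested and 0 passed in limma, with a median of 0.27. PLSCR4, a phospholipid scramblase, was at 1.05 ± 0.36 (limma, adjusted p = 0.169).

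Of 4 kinases and RAS regulators that bind annexins, 3 were tested, with a median of 0.07 for PC-3-descended sublines against TEM4-18. In limma 0 passed, where 3.38% of all genes passed. EGFR, the EGF receptor that ANXA6 is known to restrain, read 15611 in GS694.LAd, 17982 in GS689.Li and 10835 in GS672.Ug, against 8162 in GS683.LALN and 11799 in JD1203.Lu, and 7796 and 8205 on the TEM4-18 arrays. It was highest in GS689.Li and GS694.LAd, and the difference between PC-3-descended sublines and TEM4-18 was 0.85 ± 0.23 (limma, adjusted p = 0.0904). It passed when GS672.Ug was left out (1.06, limma adjusted p = 0.0160). SRC, a kinase that phosphorylates ANXA2, was at -0.30 ± 0.20 and PRKCA, the protein kinase C alpha gene, at 0.07 ± 0.21 (limma, adjusted p = 0.490 and 0.906).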

How the data were processed

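Total RNA was hybridised to 1-colour arrays with biotin label, 7 arrays in all. The deposited values are intensity values, 54675 probe sets per array, made by the authors with MAS5, per the submitters' processing notes; the MAS5 version was not given in the sources used here. They are linear, and the mean over the middle 96% of probe sets was 1500.2 on all 7 arrays, so each array had been scaled. The array medians ran from 283 to 297 in PC-3-descended sublines, from 252 to 254 in TEM4-18-derived sublines and from 239 to 259 in TEM4-18. The number of arrays limits the precision.

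Of the probe sets, 41097 name 1 gene, 1801 several and 11777 none in the platform annotation, with symbols updated through the Entrez gene identifiers of the RefSeq table; 62 are controls and were left out. An offset of 46.9 (the 20th percentile) was added before log2. Probe sets whose mean reached the 40th percentile were kept, and the one of highest mean represented each gene, giving 13640 genes. limma 3.58.1 in R 4.3.3 (lmFit, then eBayes with the trend option) tested 4 contrasts, 2-sided, with Benjamini-Hochberg adjustment and a threshold of 0.05. The contrast of all 5 sublines used a model of 2 groups and the others 1 model of 3 groups. Figures and promoter counts used Python 3.11.15, pandas 2.3.3 and matplotlib 3.10.9. The fit was tested on simulated data for PC-3-descended sublines against TEM4-18, with 200 of 13640 genes changed. It recovered 42% of the changed genes at a log2 size of 1 and 83% at a size of 2, with 5 false calls at each. A gene that did not pass may therefore still differ by 2-fold.

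The members, partner lists and markers were chosen with earlier results of these data known. The text names all 10 members, the 5 genes most correlated with ANXA10, its 5 tested neighbours on each side and for each list up to 3 members, those of largest size. The neighbours of ANXA6, the partner gene S100A10 and the mucin gene MUC5AC were chosen after their values were seen. Alternatives changed the offset, filter, choice of probe set, scaling, variance model and the arrays included.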

Additional observations from a re-analysis of the deposited data

Results flagged for a closer look

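The log2 values of ANXA1 in the 5 in vivo sublines held 1 value far from the others: the gap of JD1203.Lu to the next subline took up 0.858 of the range of the 5. With signals of 37116 in GS683.LALN, 37854 in GS689.Li, 37929.5 in GS672.Ug and 38535.5 in GS694.LAd beside 48325 in JD1203.Lu, the other 4 sublines lay within a narrow band. On the second ANXA1 probe set JD1203.Lu was not set apart, at 786 beside 755 in GS683.LALN. The critical value that this share passed is one that chance passes in about 1 in 20 groups. Without JD1203.Lu the difference between all in vivo sublines and TEM4-18 kept its direction, and it did not pass with or without that array.

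ANXA6 differed between the 2 groups of sublines that were each set against TEM4-18. PC-3-descended sublines stood above TEM4-18-derived sublines by a log2 difference of 0.99 (limma, adjusted p = 0.0405), with means of 9525 and 4846. This call was lost in 9 of 18 alternatives, with limma adjusted p of 0.0168 to 0.145 over all of them, and the difference was 0.70 without GS683.LALN. Both were compared with the same TEM4-18 arrays, which cancel in the size of that difference. They still enter the spread on which its p-value rests, since 1 model of 3 groups was fitted.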

How the results depend on the processing

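Over 18 alternatives, the number of annexins that passed stayed at 0 in the contrasts of all 5 sublines and of TEM4-18-derived sublines with TEM4-18. For PC-3-descended sublines against TEM4-18 it was 0 instead of 1 with the mean of a gene's probe sets, with GS689.Li and GS694.LAd averaged and without the intensity trend, and 0 to 1 when 1 array at a time was left out. Against the TEM4-18-derived sublines it was 0 instead of 1 in the same settings and with no filter, and 0 to 2 when 1 array was left out. The lone arrays left in a group by such omissions were assumed to vary like the other groups. ANXA10 was at 3.79, 4.08 and 3.35 without an offset and at 1.00, 1.17 and 0.76 with the median as offset, for all 5 sublines, PC-3-descended and TEM4-18-derived sublines against TEM4-18. Without TEM4-18 replicate 1 it was at 1.70, 1.96 and 1.32, and without replicate 2 at 2.81, 3.07 and 2.43. The filter at the 60th percentile removed it.

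Some differences that had not passed changed sign near 0, and the cause was not tested. For PC-3-descended sublines against TEM4-18, ANXA1 was at -0.0048 and ANXA4 at 0.022 with the mean of the probe sets, ANXA2 at -0.036 without probe sets that may cross-hybridise and ANXA4 at 0.022 with quantile normalization. For PC-3-descended against TEM4-18-derived sublines, ANXA2 was at -0.0034 with the mean, -0.14 without cross-hybridising probe sets and -0.017 with median centring, and ANXA3 at 0.012 with the averaged sublines. Leaving out 1 array at a time turned the sign of further values. ANXA4 ran from -0.11 to 0.085 for PC-3-descended sublines against TEM4-18. In the contrast of TEM4-18-derived sublines with TEM4-18, ANXA5 ran from -0.37 to 0.054, ANXA6 from -0.085 to 0.51, ANXA7 from -0.046 to 0.14 and ANXA11 from -0.29 to 0.075. Between PC-3-descended and TEM4-18-derived sublines, ANXA1 ran from -0.34 to 0.038, ANXA2 from -0.047 to 0.16 and ANXA3 from -0.25 to 0.050.

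No paired analysis was possible because the labels number the replicates of TEM4-18 only. Genes called for PC-3-descended sublines against TEM4-18 numbered 461, but 44 without TEM4-18 replicate 1, 31 without replicate 2, 161 with GS689.Li and GS694.LAd averaged, 162 without the trend and 940 without GS672.Ug. Signals near the offset are limited by background, as of ANXA10 in TEM4-18 and of the brighter shared ANXA8 probe set on TEM4-18 replicate 1 (39.1). With 1 array per subline, no difference between single sublines carries a test.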
